A study of Homo sapiens with 9 samples.

Results

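Gene expression in Namalwa, a Burkitt lymphoma line, was compared with that in SU-DHL4 and SU-DHL6, which come from diffuse large B-cell lymphomas. The comparison used 6 of the 9 Affymetrix HG-U133A arrays of the series, 2 arrays for each of the 3 lines, all titled as untreated and grown in the same serum-supplemented medium. Genes were kept where both Namalwa arrays lay beyond all 4 SU-DHL arrays. This held for 5074 of 22215 probe sets (22.8%), 2545 above (11.5%) and 2529 below (11.4%), and with a gap of at least 1 (log2) between the nearest arrays for 128 above (0.576%) and 87 below (0.392%). Of the 5074, 1779 (8.01% of all) also passed a test of the difference between lines, 944 higher (4.25%) and 835 lower (3.76%). They covered 672 genes higher in Namalwa and 609 genes lower, out of 11963 genes with a probe set that could be named. A gene was counted if any of its probe sets passed. Genes with conflicting probe sets can thus be included, such as BCL2 among the higher genes. Values are log2 intensities after RMA, so a difference of 1 is a 2-fold change, and RMA gives no detection call.

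Namalwa stands here for 1 Burkitt line, and the SU-DHL group for 2 lines, so the test compares these lines and not the lymphomas they come from. Nothing in the labels says that the arrays of a line came from separate cultures, and the p-values measure the spread between arrays of a line, which may be technical. The Namalwa arrays had been published earlier by the same group, while the SU-DHL arrays were new, so line and array batch cannot be told apart. A difference in every cell of a culture and one in some of its cells cannot be told apart either.

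Burkitt lymphoma is a tumour of germinal centre B cells in which a translocation places MYC, a driver of growth and division, beside an immunoglobulin gene. Frequent partners of this lesion are changes in ID3, TCF3 and CCND3, and Namalwa also carries Epstein-Barr virus. SU-DHL4 and SU-DHL6 belong to the germinal centre type of large B-cell lymphoma and carry the translocation that places BCL2, an inhibitor of cell death, under immunoglobulin control. In tumours, Burkitt lymphoma is known for low NF-kB activity and low MHC class I levels beside large B-cell lymphoma.

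All 3 lines had the RNA of B cells. CD79A, a signalling chain of the B-cell receptor, stood at 11.33 and 11.00 in the Namalwa arrays, 11.27 and 11.36 in SU-DHL4, and 11.68 and 11.80 in SU-DHL6. PAX5, a factor that fixes B-cell identity, lay between 9.83 and 10.42 in the 6 arrays, and the plasma cell antigen gene SDC1 between 6.60 and 7.18, against 9.26 to 11.38 in the 3 plasma cell myeloma (PCM) lines of the series. None of 16 T and NK cell, 10 myeloid and 7 erythroid and platelet markers passed the test. Of 12 stromal and epithelial markers 1 did, DCN, which encodes decorin, with 10.68 and 10.62 in SU-DHL4 against 7.92 to 7.97 in the other 4 arrays. The T and NK cell markers did not include TRBC1 and KLRC3, receptor genes of these cells that were higher in Namalwa by 4.05 and 3.57, as given below. The level of the hybridisation controls overlapped between Namalwa (9.18 and 8.76) and the SU-DHL arrays (8.79 to 9.30). In SU-DHL6 array 2 the 3′ probe set of GAPDH exceeded its 5′ probe set by 0.44, against -0.09 to 0.03 in the other 5 arrays.

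Namalwa stood no further from either SU-DHL line than these stood from each other. The standard deviation of the log2 difference between arrays was 0.48 to 0.54 for Namalwa against SU-DHL arrays and 0.47 to 0.56 between SU-DHL4 and SU-DHL6, against 0.22 to 0.35 between arrays of the same line. By limma, 2001 of 22215 probe sets (9.01%) differed between Namalwa and the mean of the SU-DHL lines at an adjusted p under 0.05, 1044 higher in Namalwa (4.7%) and 957 lower (4.31%). Of these, 372 (1.67%) were at least 1 (log2) higher and 314 (1.41%) at least 1 lower. The same fit called 1705 (7.67%) between Namalwa and SU-DHL4 and 2143 (9.65%) between Namalwa and SU-DHL6, which share the Namalwa arrays, and 1892 (8.52%) between SU-DHL6 and SU-DHL4. Single arrays weighed on the count of 2001, which was 187 without Namalwa array 1, 228 without array 2, 766 and 759 without either SU-DHL4 array, and 2607 and 2450 without either SU-DHL6 array. It was 1079 without the line SU-DHL4, and 235 when line was a random block, under which 58 of the 94 named probe sets that were called lost their call. With 1 mean per line limma called 0 probe sets. Of the 22215, 1205 had an unadjusted p under 0.05 in that fit, close to the share of 0.05 expected with no differences.

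Among the kept genes the difference had a median size of 0.80 in both directions, and 55 of the 672 higher genes and 29 of the 609 lower genes differed over 4-fold. The SU-DHL lines differed from each other, at an adjusted p under 0.05, in 151 (22.5%) of the higher and 187 (30.7%) of the lower genes. At the threshold of the rule, BBS4 and MAN1A2 lay inside by 9.12e-05 and 0.000154, and AP1M2 and MMRN1, on the lower side, by 0.000134 and 0.000138. DAD1 and NFE2L1 on the higher side, and RPL18 and RPL6 on the lower side, lay just outside with the nearest arrays tied.

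The 2 genes with the largest differences were dim in the SU-DHL lines and bright in Namalwa. YBX3, which encodes a cold-shock protein that binds DNA and RNA, read 11.13 and 11.53 in Namalwa, 5.23 and 5.66 in SU-DHL4, and 5.33 and 5.52 in SU-DHL6. It was higher by 5.90 (SE 0.17, 59.7-fold, limma adjusted p = 0.000377), and 2 of its 3 probe sets passed, while the other gave -0.17 (adjusted p = 0.578). The PCM lines, at 10.03 to 10.69, were also high. PLAC8, a small cysteine-rich protein gene expressed in several blood lineages, read 11.99 and 11.94 in Namalwa, 5.88 and 6.13 in SU-DHL4, and 6.21 and 6.48 in SU-DHL6. It was higher by 5.79 (SE 0.12, 55.2-fold, adjusted p = 0.000151), and here the PCM lines (6.32 to 6.53) sat with the SU-DHL lines.

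PRKAR2B, a regulatory subunit of protein kinase A, read 11.00 and 10.70 in Namalwa against 4.86 to 5.82 in the SU-DHL arrays (5.61, SE 0.24, adjusted p = 0.000571). CD9, a tetraspanin of the cell surface, read 9.61 and 9.57 in Namalwa, 5.69 and 5.77 in SU-DHL4, and 5.71 and 5.63 in SU-DHL6 (3.89, SE 0.08, adjusted p = 0.000151). The SU-DHL arrays lay close together for CD9, and of the PCM lines only U266, at 7.06, lay apart from them. SMAD1, which carries signals from bone morphogenetic protein receptors, read 9.75 and 10.27 in Namalwa against 5.51 to 6.37 (4.11, SE 0.17, adjusted p = 0.000589). The chemokine gene CCL4 read 10.29 and 10.43 against 6.72 to 7.14 (3.36, SE 0.13, adjusted p = 0.000543). The mannosidase gene MAN1A1, of N-glycan trimming, was higher by 3.49 (SE 0.15, adjusted p = 0.00062) and brighter still in the PCM lines (9.54 to 10.69).

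TCF4, which encodes the E protein E2-2, was higher in Namalwa at all 7 of its probe sets. The probe set with the largest difference read 10.09 and 10.01 in Namalwa, 7.36 and 7.75 in SU-DHL4, and 5.09 and 5.03 in SU-DHL6 (3.74, SE 0.13, adjusted p = 0.000459). The 3 lines formed 3 steps that did not overlap, with Namalwa 2.50 above SU-DHL4 and 4.99 above SU-DHL6. ID3, an inhibitor that binds E proteins, was also higher, as given with the Burkitt genes. Of 7 E protein and ID genes measured these 2 were higher and none lower (28.6% called, median 0.65), against 10.2% called and a median of -0.01 over all 11963 genes counted in the same way, and TCF3, TCF12, ID1 and ID2 did not pass. The 10.2% is over genes of all levels. Calls were more frequent among bright genes: of 5777 autosomal genes brighter than the median level, 7.2% were higher and 8.59% lower. For a list of bright genes, here and below, 10.2% is thus a low share to compare with.

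Several other large differences lay at genes of receptors and loci that are rearranged or repeated. BMS1P20, a pseudogene of the immunoglobulin lambda locus, was higher at 1 of 2 probe sets (4.72, SE 0.13, adjusted p = 0.000377), and the lambda constant gene IGLC1 at 2 of 6 (3.29, SE 0.18, adjusted p = 0.00119). IGLC1 read 14.07 and 13.92 in Namalwa, 9.07 and 8.84 in SU-DHL4, and 12.16 and 12.74 in SU-DHL6, so SU-DHL4 was far below the others. TRBC1, the constant region of the T-cell receptor beta chain, was higher by 4.05 (SE 0.23, adjusted p = 0.00141), and KLRC3, a receptor gene of NK cells, by 3.57 (SE 0.12, adjusted p = 0.000459). These probe sets may hybridise to near-identical copies in the same loci. AFF1, an elongation complex scaffold, was higher at 1 of 3 probe sets (3.59, SE 0.21, adjusted p = 0.00142), as were MID1IP1, a regulator of fatty acid synthesis (3.41, SE 0.28, adjusted p = 0.00307), and the NOD-like receptor gene NLRP2 (3.26, SE 0.12, adjusted p = 0.000459) at their only one. Of these 15 genes, IGLC1 and TCF4 lost their call with line as a random block and MID1IP1 without either Namalwa array, and all 15 lost it with 1 mean per line.

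**Figure D1:**
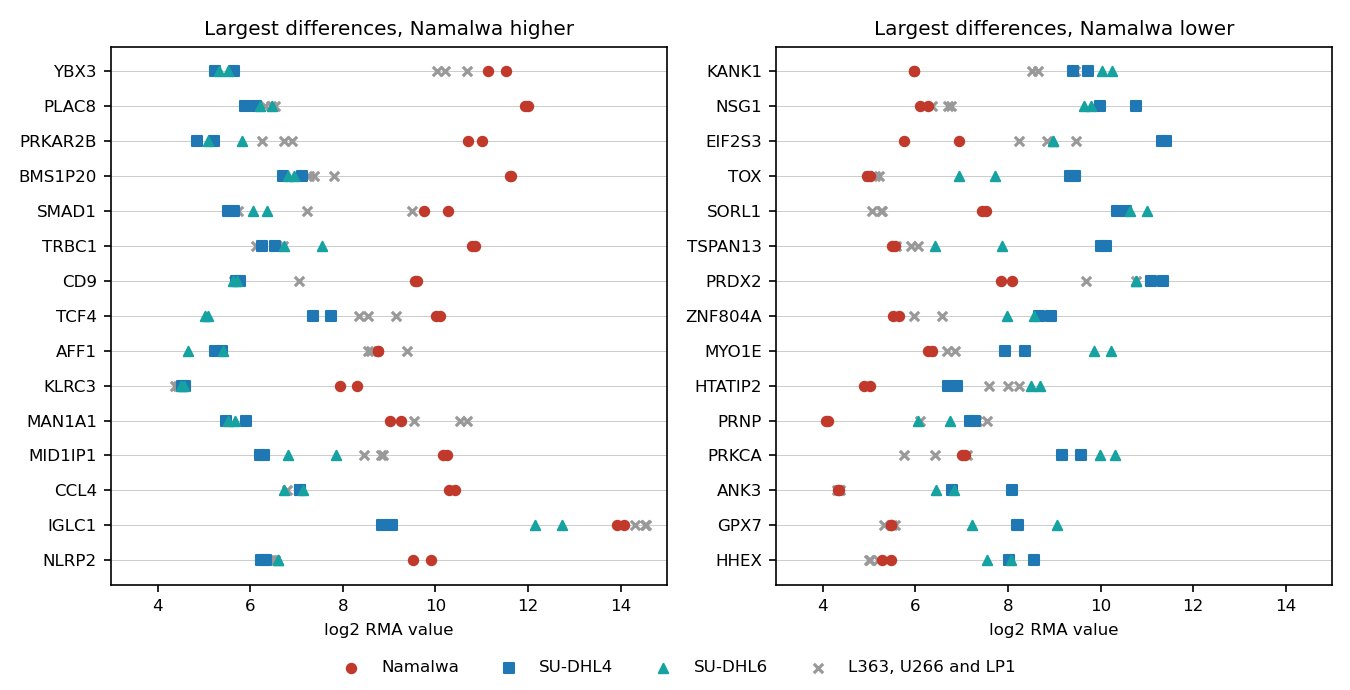
Log2 RMA value (x axis) of the 15 genes with the largest differences in each direction, 1 row per gene and 1 symbol per array for Namalwa, SU-DHL4 and SU-DHL6 (2 arrays each) and for L363, U266 and LP1, the PCM lines (1 array each). Namalwa lies beyond the 4 SU-DHL arrays in every row by construction, while the PCM lines sit with Namalwa for YBX3 and with the SU-DHL lines for PLAC8.

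The genes lowest in Namalwa beside the SU-DHL lines included regulators of cell shape, sorting and lymphocyte differentiation. KANK1, an organiser of the actin cytoskeleton, read 5.97 in both Namalwa arrays, 9.41 and 9.73 in SU-DHL4, and 10.03 and 10.25 in SU-DHL6 (-3.88, SE 0.12, limma adjusted p = 0.000459). NSG1, an endosomal protein best known from neurons, differed by -3.87 (SE 0.22, adjusted p = 0.00136). SORL1, a sorting receptor of the endosome, read 7.53 and 7.43 in Namalwa, 10.36 and 10.56 in SU-DHL4, and 10.63 and 11.01 in SU-DHL6 (-3.16, SE 0.13, adjusted p = 0.000571), and it was lower still in the PCM lines (5.06 to 5.29). TOX, a nuclear factor of lymphocyte development, read 4.95 and 5.01 in Namalwa, 9.35 and 9.44 in SU-DHL4, and 6.94 and 7.73 in SU-DHL6 (-3.38, SE 0.22, adjusted p = 0.00186). Here SU-DHL6 was between the other lines. HHEX, a homeobox factor of early lymphoid cells, read 5.48 and 5.27 against 7.54 to 8.56 (-2.67, SE 0.21, adjusted p = 0.00301).

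PRKCA, which encodes protein kinase C alpha and passed at 3 of 4 probe sets, read 7.08 and 7.01 in Namalwa, 9.57 and 9.17 in SU-DHL4, and 9.99 and 10.31 in SU-DHL6 (-2.72, SE 0.15, limma adjusted p = 0.00121). PRKCB, which encodes the beta form that acts below the B-cell receptor, went the other way, at 9.88 and 10.00 in Namalwa, 6.90 and 6.91 in SU-DHL4, and 7.99 and 8.60 in SU-DHL6 (2.34, SE 0.17, adjusted p = 0.00257). Both probe sets meet the rule for kept genes, in opposite directions, so the separation of every array is given by the rule. The levels of the 2 kinase genes cannot be set against each other across probe sets. PRNP, which encodes the prion protein, differed by -2.72 (SE 0.20, adjusted p = 0.00244). Of the 4 probe sets of PRDX2, a peroxiredoxin, 3 passed, with -3.04 (SE 0.12, adjusted p = 0.000459), -1.17 and -0.73, and the last gave -0.25 (adjusted p = 0.283). EIF2S3, a subunit of the translation factor eIF2, differed by -3.82 (SE 0.32, adjusted p = 0.00321). Its 2 Namalwa arrays were 6.95 and 5.75, SU-DHL4 read 11.41 and 11.32 and SU-DHL6 8.97 in both, and without SU-DHL4 the call was lost (-2.62, adjusted p = 0.0563).

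The remaining large differences were in the myosin gene MYO1E (-2.78), the zinc finger gene ZNF804A (-2.95), the oxidoreductase gene HTATIP2 (-2.76), the ankyrin gene ANK3 (-2.70), the peroxidase gene GPX7 (-2.69) and the tetraspanin gene TSPAN13 (-3.07). TSPAN13 read 5.57 and 5.49 in Namalwa, 10.01 and 10.12 in SU-DHL4, and 6.42 and 7.87 in SU-DHL6. Without SU-DHL4 it gave -1.61 (limma adjusted p = 0.193), and GPX7 gave -2.66 (adjusted p = 0.119). Of the 15 lower genes, 7 lost their call with line as a random block, 5 without 1 of the arrays and 15 with 1 mean per line.

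MYC itself did not separate the Burkitt line. It read 10.84 and 11.00 in Namalwa, 11.59 and 11.68 in SU-DHL4, and 10.70 and 9.75 in SU-DHL6, a difference of -0.01 (SE 0.26, limma adjusted p = 0.997). Namalwa lay between the SU-DHL lines, and without SU-DHL6 the difference from SU-DHL4 was called (-0.71, adjusted p = 0.0197), while in the fit of all 3 lines the same difference was not (adjusted p = 0.277). Without SU-DHL4 it was 0.70 (adjusted p = 0.377). MAX, the partner through which MYC binds DNA, was lower in Namalwa (-0.71, adjusted p = 0.0065). Of 33 MYC target genes measured, 1 was higher and 2 were lower (9.09% called against 10.2% over all genes, median 0.01). The 3 were PPAT, of purine synthesis (0.80, adjusted p = 0.0251), IMPDH2, of guanine nucleotide synthesis (-1.13, adjusted p = 0.00512), and C1QBP, a mitochondrial matrix protein (-0.68, adjusted p = 0.0472). PPAT lost its call without SU-DHL6 and C1QBP without SU-DHL4.

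Of 18 genes reported higher in Burkitt lymphoma, 4 were higher in Namalwa, 1 was lower and 13 did not pass (27.8% called against 10.2%, median 0.10). ID3 read 11.48 and 11.63 in Namalwa, 9.63 and 9.47 in SU-DHL4, and 9.13 and 9.47 in SU-DHL6 (2.13, SE 0.13, limma adjusted p = 0.00142). Both Namalwa arrays were far above the rest, and the PCM lines ran from 6.75 to 9.40. TCL1A, a coactivator of AKT, read 12.95 and 12.85 against 10.53 to 11.79 (1.72, SE 0.19, adjusted p = 0.0072). CCND3, a D-type cyclin, read 11.56 and 11.25 in Namalwa, 9.33 and 9.36 in SU-DHL4, and 10.82 and 10.93 in SU-DHL6 (1.30, SE 0.11, adjusted p = 0.00324). Its gap to SU-DHL6 was small, and without SU-DHL4 the difference was 0.53 (adjusted p = 0.133). BMP7, a bone morphogenetic protein, was higher by 1.51 (SE 0.32, adjusted p = 0.0432) and lost its call in 10 alternatives.

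Several hallmark genes gave no difference that passed. TCF3 gave 0.26 (limma adjusted p = 0.119), TERT, the telomerase catalytic subunit, -0.36 (adjusted p = 0.0555, and -0.88 with adjusted p = 0.0299 without SU-DHL4), the chromatin remodeller gene SMARCA4 -0.32 (adjusted p = 0.596) and MME, which encodes the antigen CD10, 0.52 (adjusted p = 0.19). BCL2 depended on the probe set. At the brightest of its 4 probe sets Namalwa read 7.29 and 6.69, SU-DHL4 6.84 and 7.19, and SU-DHL6 6.63 and 7.17 (0.04, adjusted p = 0.977). The others gave 1.44 (adjusted p = 0.0103), -0.15 (adjusted p = 0.849) and -0.61 (adjusted p = 0.00795), so no direction is given for this gene.

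Of 16 genes reported lower in Burkitt lymphoma than in large B-cell lymphoma, 4 were higher in Namalwa and none was lower (25% called against 10.2%, median 0.13). CCR7, a homing receptor, read 6.89 and 6.68 in Namalwa against 4.95 to 5.92 in the SU-DHL arrays (1.38, SE 0.20, limma adjusted p = 0.0161). BCL2A1, an inhibitor of cell death induced by NF-kB, read 6.98 and 6.69 against 5.54 to 5.78 (1.19, SE 0.12, adjusted p = 0.00594). CD58, an adhesion ligand for T cells, was higher by 0.84 (SE 0.11, adjusted p = 0.0105), and HLA-F, a class I gene, by 0.69 (SE 0.12, adjusted p = 0.0276). Without SU-DHL4, CCR7 (1.15, adjusted p = 0.0781), CD58 (0.39, adjusted p = 0.114) and HLA-F (0.25, adjusted p = 0.215) lost their call. BCL2A1 kept its call there but lost it without either Namalwa array, and all its readings were below the median of their array. CD44, the hyaluronan receptor, differed by -0.08 to 0.07 at its 8 probe sets, none of which passed. STAT3 (0.32, adjusted p = 0.263) and the NF-kB inhibitor gene NFKBIA (-0.31, adjusted p = 0.458) did not pass either.

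A list of genes that Epstein-Barr virus is known to induce in B cells was counted next. Of 21 measured, 9 were higher in Namalwa and 3 lower (57.1% called, median 0.46), against 10.2%. PLAC8 led the higher group, but it was known from earlier results of these data, so its call is no independent evidence for the list. CR2, which encodes CD21, the receptor of the virus, read 7.81 and 7.78 in Namalwa, 5.32 and 5.42 in SU-DHL4, and 5.23 and 5.57 in SU-DHL6 (2.41, SE 0.11, limma adjusted p = 0.00086). CCR7, BCL2A1 and CD58 are in this list too. The lower genes were the intermediate filament gene VIM, the integrin gene ITGAL, which encodes CD11a, and the costimulatory gene CD86. ITGAL read 6.32 and 6.41 in Namalwa against 7.64 to 8.86 (-1.97, SE 0.13, adjusted p = 0.00208), and CD86 7.52 and 7.54 against 8.94 to 9.25 (-1.56, SE 0.10, adjusted p = 0.00191). VIM read 6.85 and 6.31 in Namalwa, 6.62 and 6.71 in SU-DHL4, and 11.01 and 11.66 in SU-DHL6, so its lower call came from SU-DHL6 alone and Namalwa overlapped SU-DHL4. EBI3, named for its induction by the virus, did not pass (0.46, adjusted p = 0.156). Viral transcripts were not measured here.

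Of 27 NF-kB target genes, 6 were higher, 2 were lower and 19 did not pass (29.6% called against 10.2%, median 0.17). CCL4 had the largest difference, and CCR7 and BCL2A1 were also among the higher genes, while CD86 was lower. Of 19 genes of activated B cells, 2 were higher and none lower (10.5% called, median -0.03). These were the phosphatase gene PTPN1 (0.77, SE 0.08, limma adjusted p = 0.00594) and IRF4, a factor of plasma cell differentiation (0.70, SE 0.14, adjusted p = 0.0389). IRF4 read 8.44 and 8.41 in Namalwa, 6.70 and 6.40 in SU-DHL4, and 9.10 and 8.74 in SU-DHL6. Namalwa was thus below SU-DHL6, and without SU-DHL4 the sign turned (-0.49, adjusted p = 0.179).

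Of 19 germinal centre genes measured, 4 were lower and 1 was higher (26.3% called against 10.2%, median -0.20). LMO2, a transcription cofactor used to recognise germinal centre tumours, read 6.37 and 6.54 in Namalwa, 7.38 and 6.80 in SU-DHL4, and 8.96 and 9.73 in SU-DHL6 (-1.76, SE 0.26, limma adjusted p = 0.0164). The gap to SU-DHL4 was small, and the call was lost without SU-DHL6. RGS13, which damps G-protein signals in the germinal centre, read 9.01 and 8.92 against 10.36 to 10.82 (-1.59, SE 0.14, adjusted p = 0.00357). The adaptor gene STAP1 differed by -1.41 (SE 0.18, adjusted p = 0.0102), and without SU-DHL4 by -0.91 (adjusted p = 0.127). BCL6, a repressor that germinal centre cells require, read 10.25 and 10.32 in Namalwa, 11.05 and 11.15 in SU-DHL4, and 10.36 and 10.57 in SU-DHL6 (-0.50, SE 0.09, adjusted p = 0.0325). It was bright in all 3 lines and at 5.52 to 5.69 in the PCM lines, and without SU-DHL4 the difference was -0.18 (adjusted p = 0.487).

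The B-cell identity list held 14 measured genes, of which 2 were higher and 1 was lower (21.4% called against 10.2%, median 0.24). CD24, a surface sialoprotein, read 11.58 and 11.47 in Namalwa, 7.54 and 8.17 in SU-DHL4, and 10.89 and 11.40 in SU-DHL6 (2.02, SE 0.22, limma adjusted p = 0.00706). SU-DHL6 lay close to Namalwa, and without SU-DHL4 the call was lost (0.38, adjusted p = 0.404). MS4A1, which encodes CD20, read 11.09 and 10.96 against 12.22 to 12.67 (-1.47, SE 0.15, adjusted p = 0.00579), and its other probe set gave -1.48. CR2 was the remaining one. Of 15 B-cell transcription factor genes 3 were higher (20% called, median 0.36). BACH2, a repressor that holds back plasma cell differentiation, read 11.18 and 10.86 against 7.54 to 8.95 (2.56, SE 0.32, adjusted p = 0.00995). MYB, a factor of immature and cycling blood cells, read 9.77 and 9.60 against 7.51 to 8.69 (1.44, SE 0.18, adjusted p = 0.00937). Both lost their call with line as a random block. MEF2C was called higher (1.10, SE 0.22, adjusted p = 0.0388), but SU-DHL4 (10.38 and 10.62) was above Namalwa (9.52 and 8.98) and SU-DHL6 below (5.53 and 6.08), and without SU-DHL6 the sign turned (-1.25, adjusted p = 0.0319).

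B-cell receptor signalling genes differed in both directions, with 6 of 23 higher and 4 lower (43.5% called against 10.2%, median 0.00). IGHM, the heavy chain of IgM, read at its brightest probe set 12.50 and 12.79 in Namalwa, 7.18 and 6.93 in SU-DHL4, and 13.11 and 12.86 in SU-DHL6. It was called higher against the mean of the SU-DHL lines (2.62, SE 0.14, limma adjusted p = 0.00107), but Namalwa did not separate from SU-DHL6, and without SU-DHL4 the value was -0.34 (adjusted p = 0.331). Of its 5 probe sets 4 were called higher, and 3 of these separated from both lines. The largest of them read 10.03 and 9.59 in Namalwa, 6.96 and 6.83 in SU-DHL4, and 6.64 and 6.27 in SU-DHL6 (3.14, SE 0.17, adjusted p = 0.00113), so the order of Namalwa and SU-DHL6 depended on the probe set. The kinase gene FYN was higher by 1.56 (SE 0.31, adjusted p = 0.0363), which was lost without SU-DHL4 (1.36, adjusted p = 0.176) and in 9 other alternatives, and FCGR2B, the inhibitory Fc receptor, by 1.42 (SE 0.16, adjusted p = 0.00818). PRKCB, given above, had the largest difference among those separated from both lines at the brightest probe set of each gene. In the PI3K and FOXO list 3 of 16 were higher and none lower (18.8% called, median 0.02), namely TCL1A, PIK3CD, a PI3-kinase subunit of leukocytes (1.25, adjusted p = 0.0101), and TSC1, of the complex that restrains mTOR (0.68, adjusted p = 0.0328). PIK3CD lost its call without SU-DHL4, and TSC1 without either line.

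**Figure D2:**
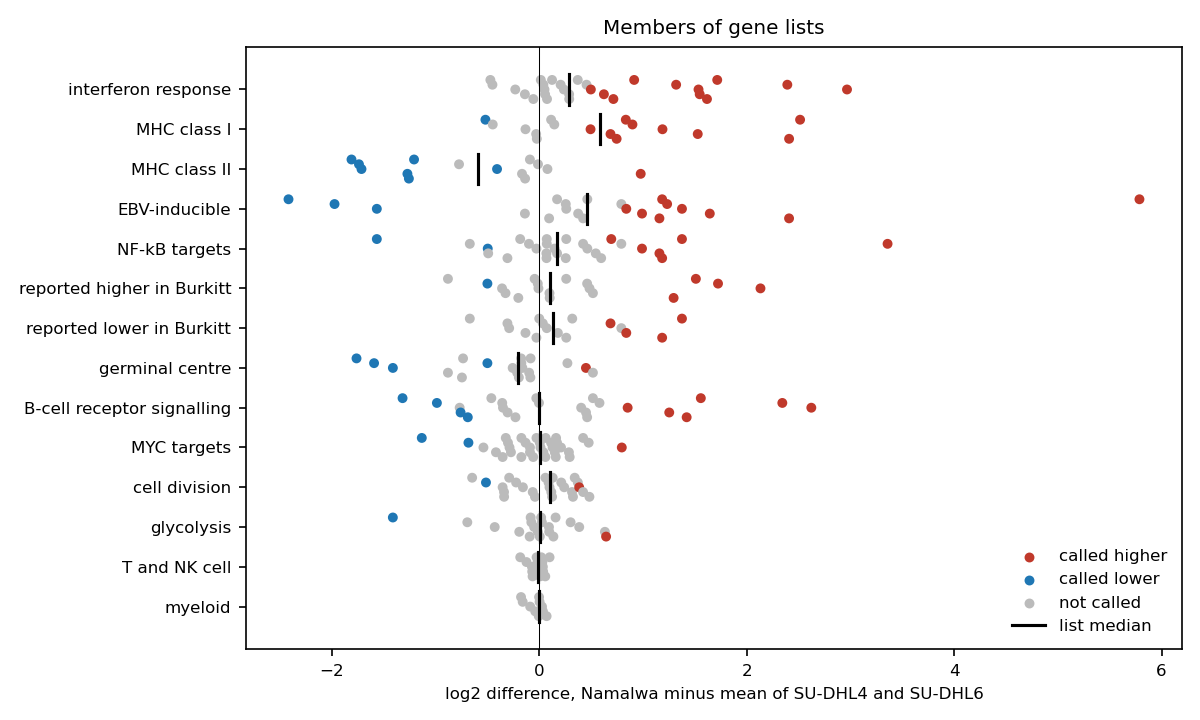
Log2 difference between Namalwa and the mean of SU-DHL4 and SU-DHL6 (x axis) for the members of 14 gene lists, 1 point per gene, with red and blue for genes called higher and lower at a limma adjusted p under 0.05, grey for the rest, and a bar at the list median. MHC class I (median 0.59) and MHC class II (median -0.59) lie on opposite sides of 0, and MYC targets (median 0.01) lie around it.

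Of 16 genes of MHC class I and its peptide supply, 9 were higher in Namalwa and 1 was lower (62.5% called against 10.2%, median 0.59). HLA-B read 13.30 and 13.27 in Namalwa, 9.54 and 9.73 in SU-DHL4, and 11.72 and 12.09 in SU-DHL6 (2.52, SE 0.13, limma adjusted p = 0.00105). HLA-C read 12.87 and 13.09, 9.11 and 9.29, and 11.93 and 11.95 in the same order (2.41, SE 0.10, adjusted p = 0.000571). For both, the 3 lines formed steps with SU-DHL4 lowest, and both lost their call with line as a random block. PSMB9 and PSMB8, catalytic subunits of the immunoproteasome that cuts peptides for class I, were both higher, PSMB9 by 1.53 (SE 0.13, adjusted p = 0.00313) and PSMB8 by 1.19 (SE 0.14, adjusted p = 0.00782). PSMB9 read 9.72 and 9.83 in Namalwa, 8.35 and 8.53 in SU-DHL4, and 7.88 and 8.23 in SU-DHL6, and the difference between the SU-DHL lines did not pass (-0.39, adjusted p = 0.191).

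Of 14 genes of MHC class II, 7 were lower in Namalwa and 1 was higher (57.1% called against 10.2%, median -0.59). HLA-DMB, part of the exchanger that loads peptides on class II, read 8.85 and 8.92 in Namalwa, 9.82 and 9.81 in SU-DHL4, and 11.31 and 11.47 in SU-DHL6 (-1.71, SE 0.08, limma adjusted p = 0.000965). HLA-DQB1 read 8.45 and 8.72, 10.00 and 9.79, and 10.57 and 11.21 (-1.81, SE 0.20, adjusted p = 0.00729), and HLA-DQA1 differed in the same direction (-1.27, SE 0.13, adjusted p = 0.00601). CTSH, a lysosomal protease, differed by -1.74 (SE 0.10, adjusted p = 0.00142). Namalwa was the lowest line for all 4, and SU-DHL6 was above SU-DHL4 for HLA-DMB (by 1.58) and CTSH (by 1.24), both past the threshold. HLA-DMB, HLA-DQB1 and CTSH lost their call with line as a random block. HLA-DRA (-0.14, adjusted p = 0.728), CD74 (-0.17, adjusted p = 0.399) and the class II activator CIITA (0.08, adjusted p = 0.805) did not pass. Probe sets of HLA genes can hybridise to more than one of these genes, and their alleles were not analysed here.

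**Figure D3:**
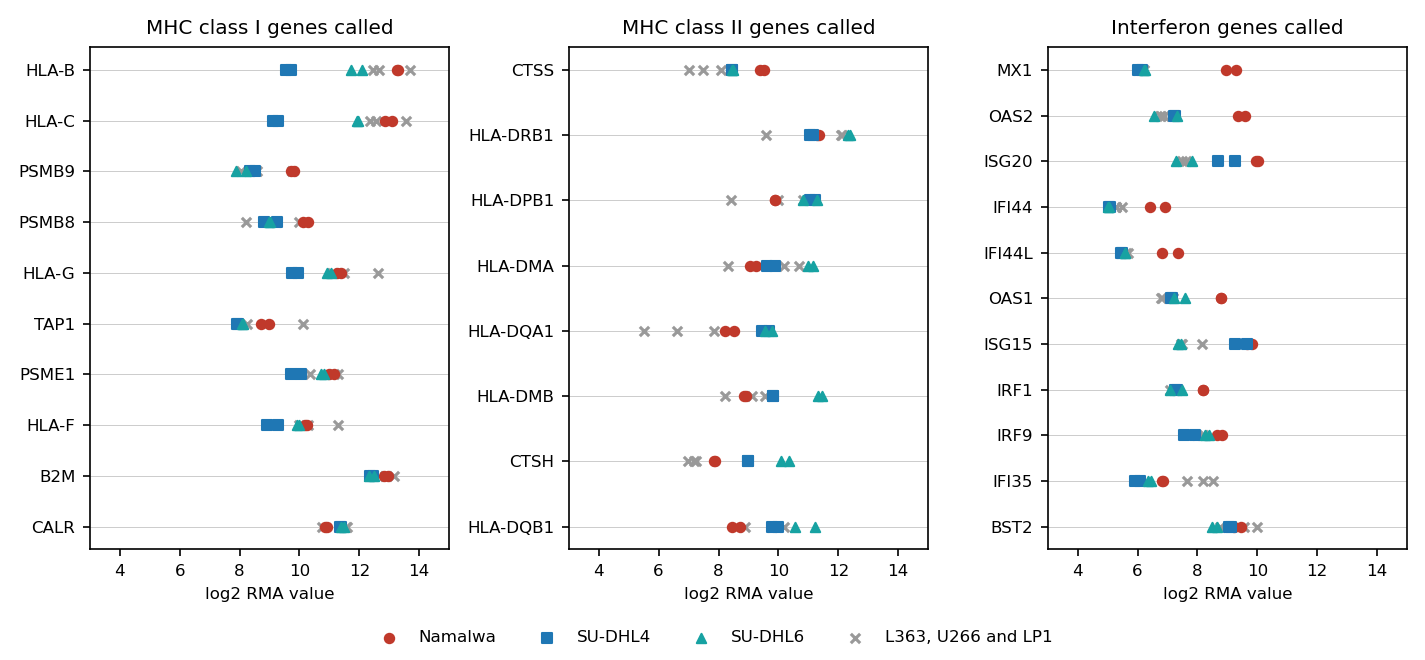
Log2 RMA value (x axis) of the MHC class I, MHC class II and interferon response genes that passed the test, 1 row per gene and 1 symbol per array. Namalwa lies right of both SU-DHL lines for HLA-B and MX1 and left of both for HLA-DMB, while the PCM lines reach 13.68 for HLA-B and stay at 6.0 to 6.21 for MX1.

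Of 28 genes of the interferon response measured, 11 were higher in Namalwa, none was lower and 17 did not pass (39.3% called against 10.2%, median 0.29). MX1, an antiviral GTPase, read 9.30 and 8.95 in Namalwa, 6.14 and 6.0 in SU-DHL4, and 6.22 and 6.26 in SU-DHL6 (2.97, SE 0.12, limma adjusted p = 0.000543). OAS2, an enzyme that activates RNA decay on sensing double-stranded RNA, read 9.60 and 9.35 against 6.55 to 7.31 (2.39, SE 0.22, adjusted p = 0.00413). The exonuclease gene ISG20 read 10.02 and 9.95 in Namalwa, 8.70 and 9.26 in SU-DHL4, and 7.28 and 7.83 in SU-DHL6 (1.72, SE 0.22, adjusted p = 0.0101). IFI44, an interferon-induced gene, passed at 1 of 2 probe sets, where it read 6.41 and 6.92 against 5.02 to 5.07 (1.62, SE 0.15, adjusted p = 0.00421). The PCM lines, at 6.0 to 6.21 for MX1, sat with the SU-DHL lines, while for ISG20 SU-DHL6 was below SU-DHL4 (-1.42 in the same limma fit) and the call was lost with line as a random block. IRF7 (0.29, adjusted p = 0.608) and IFIT3 (0.46, adjusted p = 0.0598) were among those that did not pass.

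Promoter windows of the interferon genes were searched on both strands for GAAA followed, after any 2 bases, by GAAA, the core of the element that interferon-activated factors bind. The motif was chosen after the data were seen. It was found in 6 of 10 windows of the higher genes (60.0%) and in 8 of 11 windows of the list members that were not called (72.7%), against 2.97% of the windows of the tested genes and 3.65% of all 27305 windows. The share was thus no higher among the called members than among the others. The windows of the named genes MX1, IFI44 and ISG20 are shown because they hold the motif, which is in capitals, 5′ to 3′ on the gene's strand, from RefSeq on build GRCh38.p14. All 3 genes are on the plus strand, at chr21:41420308-41420607, chr1:78649539-78649838 and chr15:88638766-88639065, each from 250 bases before to 50 bases after the annotated start. The motif of MX1 begins at base 12 after the start, that of IFI44 at -18, in the reverse orientation, and that of ISG20 at -69.
MX1: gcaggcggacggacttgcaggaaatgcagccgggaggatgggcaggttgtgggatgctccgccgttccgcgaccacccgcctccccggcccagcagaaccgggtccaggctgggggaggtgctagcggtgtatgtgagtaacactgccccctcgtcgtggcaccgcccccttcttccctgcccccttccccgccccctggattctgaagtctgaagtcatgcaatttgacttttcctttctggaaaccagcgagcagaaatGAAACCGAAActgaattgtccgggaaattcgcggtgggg
IFI44: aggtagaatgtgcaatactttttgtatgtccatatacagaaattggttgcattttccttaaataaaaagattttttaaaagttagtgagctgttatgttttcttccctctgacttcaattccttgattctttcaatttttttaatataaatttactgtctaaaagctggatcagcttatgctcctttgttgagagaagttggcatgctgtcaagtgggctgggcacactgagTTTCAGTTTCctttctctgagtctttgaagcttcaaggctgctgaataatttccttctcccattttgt
ISG20: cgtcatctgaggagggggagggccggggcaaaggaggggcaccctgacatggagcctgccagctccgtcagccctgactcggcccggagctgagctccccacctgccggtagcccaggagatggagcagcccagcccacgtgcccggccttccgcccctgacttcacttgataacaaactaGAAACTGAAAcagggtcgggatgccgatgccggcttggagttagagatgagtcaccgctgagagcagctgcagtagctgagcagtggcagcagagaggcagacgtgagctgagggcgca

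The other motifs searched were the E-box CACGTG, which MYC and MAX bind, CAGGTG, which E proteins bind, and the octamer ATTTGCAT of B-cell promoters, on both strands. Of the tested genes 9563 had a window. CACGTG was in 10.7% of the windows of the kept higher genes and 11.8% of those of the kept lower genes, against 9.51% of the tested genes. CAGGTG was in 14.4% and 17.4%, against 18.7%, and ATTTGCAT in 1.76% and 1.16%, against 1.53%. The doubled GAAA was in 5.63% of the kept higher and 2.51% of the kept lower genes. These shares describe the windows and were not tested.

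Most genes of plasma cells and the secretory programme did not pass the test between Namalwa and the SU-DHL lines. Of 24 such genes, 4 were higher, 1 was lower and 19 did not pass (20.8% called against 10.2%, median 0.10). The list is bright, with a median level of 8.5 in Namalwa against 7.34 over all genes, so 10.2% is a low share to compare with. XBP1, the factor of the secretory programme, read 9.44 and 9.71 in Namalwa, 6.33 in both SU-DHL4 arrays, and 8.15 and 7.58 in SU-DHL6 (2.48, SE 0.18, limma adjusted p = 0.00244). The order was SU-DHL4, SU-DHL6, Namalwa and then the PCM lines (11.35 to 11.59), with no overlap. XBP1 lost its call with line as a random block. CREB3L2, a transcription factor of secretory cells, read 8.49 and 8.41 in Namalwa against 5.62 to 5.85 and was at 8.79 to 9.49 in the PCM lines (2.73, SE 0.10, adjusted p = 0.000459). DNAJB9, a chaperone of the endoplasmic reticulum, was higher by 1.20 (SE 0.19, adjusted p = 0.0182) and lost its call without SU-DHL4. TNFRSF17, which encodes the plasma cell receptor BCMA, went the other way, at 8.01 and 8.0 against 8.86 to 10.21 (-1.63, SE 0.15, adjusted p = 0.00421), and PRDM1 did not pass (-0.13, adjusted p = 0.621).

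The PCM arrays had no part in the choice of genes, and they were used to place the kept genes that differed by at least 1. The arrays labelled L363 and U266 differed by a standard deviation of 0.32, within the range between arrays of the same B-cell line, so the 3 PCM lines may hold fewer than 3 independent samples. Of 233 higher genes, 61 (26.2%) had all 3 PCM arrays on the Namalwa side of the midpoint between Namalwa and the SU-DHL lines, 109 (46.8%) had them on the SU-DHL side and 63 (27%) were mixed. Of 214 lower genes, 105 (49.1%) had them on the Namalwa side, 45 (21%) on the SU-DHL side and 64 (29.9%) were mixed. YBX3, CREB3L2, MAN1A1 and XBP1 were of the first kind, and PLAC8 and MX1 of the second. Among the lower genes SORL1 and HHEX (5.00 to 5.19) were below the Namalwa level in the PCM lines. TOX (4.97 to 5.22) was close to it, while KANK1 (8.53 to 9.44) was nearer the SU-DHL lines. In both directions the larger share of genes had the PCM arrays on the side of the lower values. Genes that were not kept were not placed in this way. No background share thus stands beside these counts, and they do not show which lines the PCM lines resemble.

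Of 25 cell division genes 1 was higher and 1 lower (8% called against 10.2%, median 0.10), the checkpoint kinase gene BUB1 (0.39, limma adjusted p = 0.036) and the mitotic kinase gene AURKB (-0.51, adjusted p = 0.0411). Of 13 cyclin and inhibitor genes 2 were higher (15.4% called, median 0.00), CCND3 and CDKN1B, which encodes the inhibitor p27 (1.11, SE 0.20, adjusted p = 0.0276). Of 20 glycolysis genes (10% called) 1 was higher, ENO1 (0.65, adjusted p = 0.0103), and 1 was lower, the hexokinase gene HK1 (-1.41, adjusted p = 0.0151). Of 12 p53 target genes none was higher and 3 were lower (25% called, median -0.06), DDB2 (-0.90, adjusted p = 0.0411) and XPC (-0.87, adjusted p = 0.0304), both of DNA repair, and BAX, a trigger of cell death (-0.74, adjusted p = 0.0403). In the BCL2 family (25% called) 2 of 16 were higher, BCL2A1 and HRK, and 2 were lower, BAX and BAK1, another trigger of cell death (-0.71, adjusted p = 0.00813). HRK, which promotes cell death, read 7.79 and 7.66 against 6.45 to 6.96 (1.03, SE 0.09, adjusted p = 0.00321). Without 1 of the SU-DHL lines, BUB1, AURKB, CDKN1B, ENO1, HK1, DDB2, XPC and BAX lost their call.

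Of 24 adhesion and homing genes, 4 were higher and 3 lower (29.2% called against 10.2%, median -0.11). Beside CD9 and ITGAL, the integrin gene ITGB7 was lower, at 7.41 and 7.82 in Namalwa against 9.26 to 9.84 in the SU-DHL arrays (-1.91, SE 0.20, limma adjusted p = 0.00579). CD99, a leukocyte adhesion gene, was called lower (-1.58, adjusted p = 0.00349), but it read 7.58 and 7.40 in Namalwa, 10.79 and 11.20 in SU-DHL4, and 7.20 and 7.09 in SU-DHL6. Only SU-DHL4 was high, and without it the sign turned (0.34, adjusted p = 0.188).

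The called genes were unevenly spread over the chromosomes, which the rule had not used. Over all 11963 genes 620 were higher and 603 lower. On chromosome 1, 142 genes were higher (11.8%) and 25 lower (2.08%) of 1200. On chromosome 3, 17 were higher (2.6%) and 94 lower (14.4%) of 655, and on chromosome 14, 12 (3.15%) and 52 (13.6%) of 381. Genes brighter than the median level were then put in chromosome order and taken in windows of 25, a step chosen after the data were seen. Of these 5777 genes 7.2% were higher and 8.59% lower. Of 223 windows with at least 20 genes, 12 held at least 25% higher calls with at most 1 lower, and 13 held at least 25% lower calls with at most 1 higher. The longest run covered 150 genes of chromosome 3 from CRBN to SUCLG2, of which 68 were lower (45.3%) and 1 was higher, with 135 below 0 and a median of -0.54. The median was -0.55 against SU-DHL4 and -0.53 against SU-DHL6, and SU-DHL6 differed from SU-DHL4 by 0.01.

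On chromosome 14 the 75 genes from SDR39U1 to RBM25 held 32 lower calls and 1 higher (median -0.66), and on chromosome 17 the 50 genes from TLCD3A to GABARAP held 19 lower calls and none higher (median -0.44). Runs of higher calls lay on chromosome 1, from NOC2L to MRTO4 (29 of 75 higher, none lower, median 0.30) and from PBXIP1 to QSOX1 (36 of 100 higher, 3 lower, median 0.33). On chromosome 4 the 75 genes from APBB2 to MAD2L1 held 24 higher calls and 2 lower. Its median was 0.44, but 0.13 against SU-DHL4 and 0.63 against SU-DHL6, and SU-DHL6 was itself 0.51 below SU-DHL4 there (-0.51). The 6 runs of more than 1 window held 119 of the 496 lower calls (24%) and 89 of the 416 higher calls (21.4%) among these genes. DNA copy number was not analysed here.

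**Figure D4:**
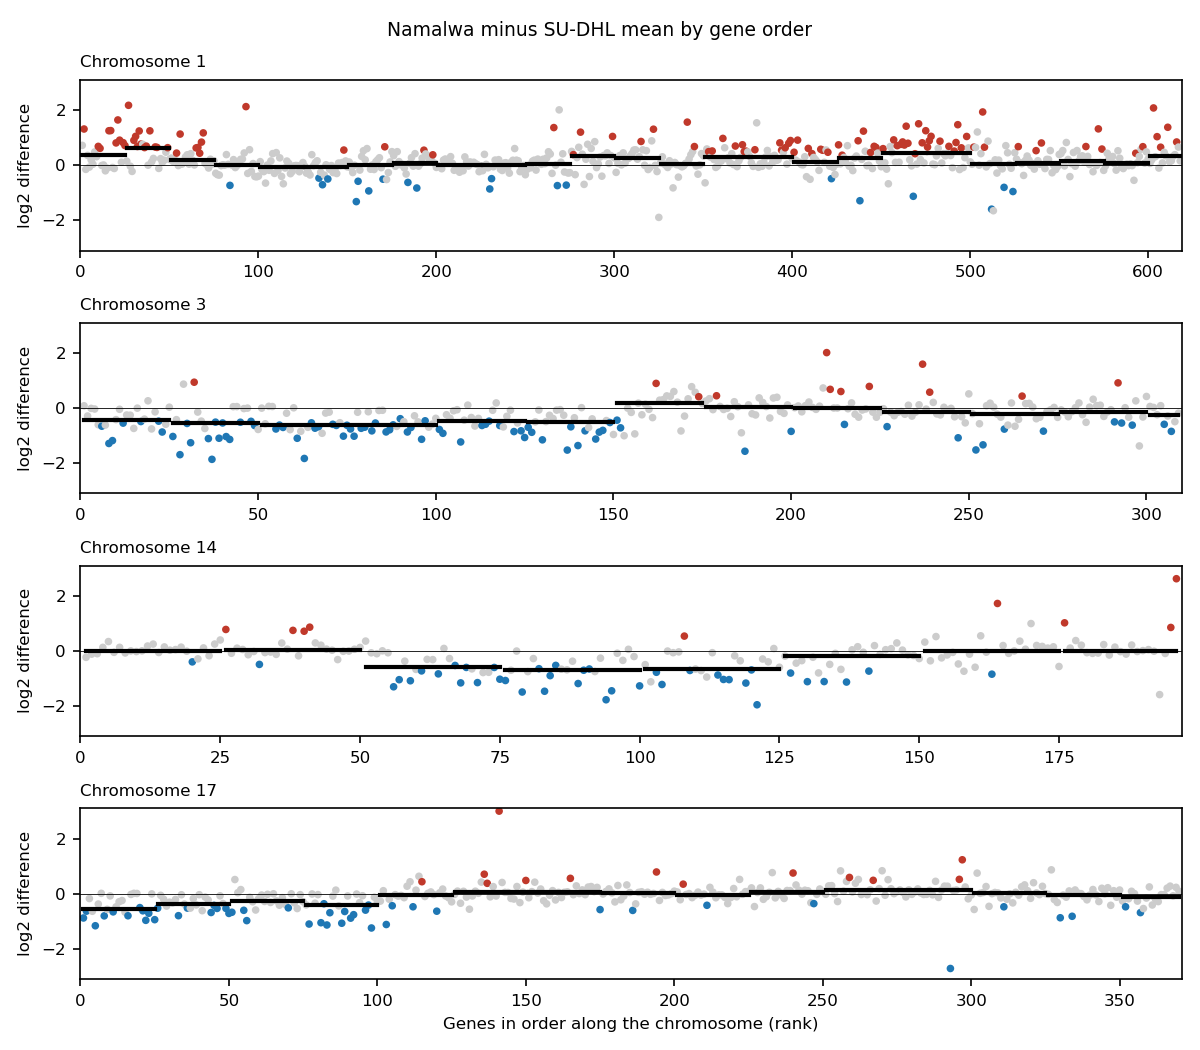
Log2 difference between Namalwa and the mean of SU-DHL4 and SU-DHL6 (y axis) for genes brighter than the median level in their order along chromosomes 1, 3, 14 and 17 (x axis, rank), with red and blue points for genes called higher and lower, grey for the rest, and a bar at the median of each window of 25 genes. On chromosome 3 the bars of the first 150 genes lie below 0 and those after them near 0.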

How the data were processed

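RNA of 6 human cell lines was measured on 9 Affymetrix HG-U133A arrays, of which the 6 arrays of Namalwa, SU-DHL4 and SU-DHL6 entered the comparison. Per the labels' protocols and the submitters' processing notes, RMA was the authors' normalization, and they deposited its log2 values for 22283 probe sets. Its version is not given in the sources used here, nor is it stated whether the earlier Namalwa arrays were normalized jointly with the rest. The authors' own PCM against B-cell comparison, also deposited, was not used. Array medians lay between 6.95 and 7.04, and the number of arrays limits the precision.

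After removal of 68 control probe sets 22215 remained. In the platform annotation 19065 probe sets had 1 gene symbol, of which 19053 were updated through their Entrez ID, 1043 had several and 2107 had none. With R 4.3.3 and limma 3.58.1, lmFit and eBayes were run on the deposited values with line as a factor, 3 residual degrees of freedom and no further normalization. The test was two-sided, with Benjamini-Hochberg adjustment over all 22215 and a threshold of 0.05. Tested on simulated data for this comparison, the fit recovered 61.2%, 95.5% and 98.5% of probe sets changed by 1, 2 and 4 (log2), with 8 false calls. The simulated noise was independent between arrays, with spreads shuffled among probe sets, and Namalwa had no batch effect. The number of false calls in the real arrays is therefore not known from it.

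Lists (26, with 459 genes) were counted on each gene's brightest probe set, with no set test. The 10.2% beside them is over named genes of all levels and was not matched for level. Genes were named by rule: per direction the 15 largest called differences among separated probe sets with 1 symbol, a fixed set of lymphoma genes, up to 4 called members with the largest difference per list, and 2 genes on each side of the separation threshold. Other list members named, and DCN, CD79A, PAX5, SDC1, PRDM1, TCF12, ID1, ID2, HLA-DRA, CD74, CIITA, IRF7 and IFIT3 among them, were chosen as markers or after their values were seen. The comparison, its members and the lists were chosen with earlier results of these data known. PLAC8, TCF4, XBP1 and CD9, markers known from those results, are counted in their lists. The shares called in these lists are thus not independent of that choice. Promoter windows were RefSeq's on GRCh38.p14, matched by symbol. Array numbers in the titles were not used to pair the samples in the main fit. Over 22215 probe sets, the log2 difference between array 1 and array 2 correlated at -0.44 between Namalwa and SU-DHL4 and at -0.15 between Namalwa and SU-DHL6. Between the SU-DHL lines it correlated at 0.2. Arrays of equal number thus did not shift together in all lines, and a pairing in another order was not tested. Alternatives changed the scaling, the filters, the threshold, the model of spread and the arrays or lines used.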

Additional observations from a re-analysis of the deposited data

Results flagged for a closer look

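For the genes below, the difference of Namalwa from SU-DHL4 and its difference from SU-DHL6 were not the same. The gap between them equals SU-DHL6 minus SU-DHL4, and limma gave that difference an adjusted p below 0.05, so that a mean over both lines describes neither. Values are log2 differences, SU-DHL6 minus SU-DHL4.

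SU-DHL6 was above SU-DHL4 for genes of antigen receptors and differentiation, by 5.93 for IGHM, 3.5 for IGLC1, 3.29 for CD24, 2.37 for IRF4, 2.25 for LMO2, 1.53 for XBP1, 1.53 for CCND3, 1.39 for PRKCB, 1.04 for TNFRSF17 and 0.92 for CD38. It was also above SU-DHL4 by 4.67 for VIM, 1.89 for MYO1E, 1.79 for HTATIP2, 1.58 for NFKBIA and 1.05 for TERT, and for the MHC genes by 2.74 for HLA-C, 2.27 for HLA-B, 1.58 for HLA-DMB and 1.24 for CTSH. SU-DHL6 was below SU-DHL4 for MEF2C (-4.7), CD99 (-3.85), TSPAN13 (-2.92), DCN (-2.7), EIF2S3 (-2.39), TOX (-2.06), ISG20 (-1.42) and MYC (-1.41), and for TCF4 at both probe sets named (-2.50 and -3.12). At the probe sets named, for IGHM, IRF4, MEF2C, CD99, VIM, DCN and MYC, Namalwa lay inside the range of the SU-DHL arrays or beside one of the lines. For HLA-B, HLA-C, TCF4, TOX and XBP1 it lay outside both, by unequal distances.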

How the results depend on the processing

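Of 2001 probe sets called (1044 higher and 957 lower in Namalwa), none was called in the opposite direction, except 4 when SU-DHL6 was left out. Changes of sign without a call are not in this count, and those of named genes are given below. The count was 2023 after a second quantile normalization, 2094 centred on the 75th percentile, 1765 among probe sets above the median level, 1852 with trend and robust eBayes, and 1669 with the level of the hybridisation controls as a covariate, which was chosen after seeing the data. It was 945 (458 higher, 487 lower) when _x_at and _s_at probe sets were dropped, where 11813 were tested, 625 (323 and 302) at an adjusted p under 0.01, and 686 (372 and 314) at a difference of at least 1. It was 462 (270 and 192) with 2 against 4 arrays. It was 235 (137 and 98) with line as a random block, where the correlation within lines was 0.23. With line means and 1 residual degree of freedom it was 0 by limma (0 higher, 0 lower, 1205 of 22215 at an unadjusted p under 0.05). Without SU-DHL4 it was 1079 (569 and 510), and without SU-DHL6 2301. Leaving out 1 array in turn gave 187 to 2607 calls, 110 to 1319 higher and 77 to 1314 lower, and an arm left with 1 array was assumed to vary like the others. With the replicate number as a block 1471 were called (774 and 697). Separation above and below the SU-DHL arrays held for 1665 and 1712 probe sets above the median level, 1161 and 1320 without _x_at and _s_at, 4682 and 6202 without SU-DHL4, 5833 and 4909 without SU-DHL6, 128 and 87 at a gap of at least 1, and 2899 to 4576 and 3078 to 4684 without 1 array. Left without 1 line, IRF4 (-0.49), IGHM (-0.34) and CD99 (0.34) turned sign without SU-DHL4 and MEF2C (-1.25) without SU-DHL6. All these genes were called with every array in, and no other named probe set that was called turned sign under any alternative. Of those not called, 6 turned sign without a line, among them TERT (0.17) and NFKBIA (0.48) without SU-DHL6 and CD38 (-0.36) and MYC (0.70) without SU-DHL4. All 94 that were called lost the call with line means, and 58 lost it with line as a random block, among them XBP1, PRKCB, TCL1A, BACH2, MYB and ITGAL. The cause of these moves was not tested, beyond fewer arrays or probe sets where an alternative uses fewer.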
